A study of Mus musculus with 12 samples.

Results

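The genes described here encode nuclear subunits of respiratory complexes II, III and IV and of ATP synthase, also called complex V. They were chosen by name alone: a gene symbol in the count tables had to begin with Uqcr, Cox followed by a digit from 4 to 8, or Atp5, or be Sdha, Sdhb, Sdhc, Sdhd or Cyc1, and pseudogenes marked by their name were left out. This gave 48 of 24062 genes: 4 of complex II, 9 of complex III, 18 of complex IV and 17 of complex V. The name rule misses some subunit genes, such as Ndufa4 of complex IV and Usmg5 and 2010107E04Rik of ATP synthase. Counts and sums of these complexes below leave them out. Of the complex V names, Atp5s and Atp5sl are not structural subunits, which leaves 46 genes called structural here. These still hold Cox7a2l, a supercomplex assembly factor that was counted with complex IV. Levels of the 48 genes were compared in liver and in gastrocnemius, a calf muscle, of 6 female C57BL/6N mice on chow diet. The wild type (WT) group held 3 animals, numbers 6 and 8 at 9.0 weeks of age and number 9 at 7.4 weeks. The R135W group held 3 animals homozygous for R135W in Mars2, numbers 5, 7 and 12, at 9.0, 7.4 and 8.6 weeks. Mars2 is the nuclear gene of the mitochondrial methionyl-tRNA synthetase, and the labels give no further modification in either genotype. Each animal gave 1 library per tissue, so each of the 4 groups holds 3 libraries.

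Respiratory complexes pass electrons from reduced substrates to oxygen. Of those described here, complexes III and IV also pump protons, which complex II does not. ATP synthase lets the protons return through its membrane part to drive its catalytic head. Complex II is built from nuclear genes only, whereas complexes III, IV and V each combine nuclear subunits with core subunits that mitochondrial DNA encodes and mitochondrial ribosomes translate. Several complex IV subunits exist in a ubiquitous (liver-type) form and a form typical of heart and skeletal muscle, encoded by separate genes. Subunits encoded by mitochondrial DNA were not analysed here, and RNA levels do not give protein levels.

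The 12 libraries held 20751583 to 30460237 counts each. The markers matched the tissue labels: 8 hepatocyte markers summed to 97850 to 101701 CPM (counts scaled to the TMM-adjusted library size) in WT liver and to 10.9 to 19.4 CPM in WT gastrocnemius, and 8 skeletal muscle markers to 0.831 to 0.932 CPM in WT liver and 132454 to 153191 CPM in WT gastrocnemius. Mars2 itself stood at 2.71 ± 0.611 CPM in WT liver and 2.88 ± 0.659 CPM in R135W liver, and at 11.9 ± 0.972 CPM and 9.67 ± 0.895 CPM in WT and R135W gastrocnemius (SD, n = 3). Those levels do not check the label, because the variant is a missense change. Values below are CPM where libraries are compared and FPKM (CPM per kilobase of exon) where genes are compared, as mean ± SD with n = 3. Folds are log2 differences from edgeR's quasi-likelihood test with Benjamini-Hochberg adjustment over all tested genes, each with its standard error (SE), and a gene counts as changed at an adjusted p under 0.05.

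Between the tissues of WT animals, most of these genes were higher in gastrocnemius. Of 46 tested, 39 were higher and 3 were lower, where 41.2% of the 15414 tested genes were higher and 40.9% were lower. The median difference was 0.83 on the log2 scale, against 0.004 over all tested genes. Among the 42 members above 1 CPM in every group, 36 were higher and 3 lower, with a median of 0.82. In bulk tissue a higher level can come from more cells that hold the RNA or from more RNA per cell, and these cannot be told apart. The R135W animals, tested in the same way, gave 41 changed members in place of 42 and a median of 0.94.

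Complex II, which oxidises succinate and feeds the electrons to ubiquinone, was higher in gastrocnemius for 4 of 4 genes. The flavoprotein gene Sdha, which holds the succinate site, stood at 404, 450.5 and 482 CPM in the livers of WT animals 6, 8 and 9, and at 966, 1019 and 983 CPM in their muscles. All muscle libraries lay above all liver libraries, a difference of 1.15 (SE 0.11, adjusted p = 3.88e-07). The iron-sulfur subunit gene Sdhb differed by 1.06 (SE 0.11), and the membrane anchors Sdhc and Sdhd by less, 0.48 (SE 0.09) and 0.51 (SE 0.11). Summed over the 4 genes, complex II stood at 623 ± 58.7 FPKM in WT liver and 1144 ± 51.2 FPKM in WT gastrocnemius, a ratio of 1.84.

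Complex III takes electrons from ubiquinol to cytochrome c through cytochrome c1 (Cyc1) and the Rieske iron-sulfur protein (Uqcrfs1). Of its 9 genes, 8 were higher in gastrocnemius. Uqcrc1, a core protein, stood at 252, 261 and 289 CPM in WT liver and at 731, 783 and 739 CPM in WT gastrocnemius. This was the largest difference of the complex, at 1.49 (SE 0.11, adjusted p = 1.38e-08). The small subunit Uqcr10 differed by 1.21 (SE 0.09), Cyc1 by 1.14 (SE 0.10), the second core protein Uqcrc2 by 1.02 (SE 0.10) and Uqcrfs1 by 0.95 (SE 0.10). Other small subunits moved less: the hinge protein gene Uqcrh differed by 0.60 (SE 0.10), and Uqcr11 by 0.34 (SE 0.14, adjusted p = 0.0315). The Uqcr11 call was lost without any 1 of 4 WT libraries, those of liver 8 and 9 and of muscle 8 and 9 (adjusted p = 0.0729 to 0.12). The exception was Uqcrq, at 393, 307 and 297 CPM in WT liver and 282, 331 and 288 CPM in WT gastrocnemius. Those ranges overlap, and the difference was -0.15 (SE 0.13, 95% interval -0.44 to 0.14).

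In ATP synthase, 14 of 15 structural genes were higher in gastrocnemius. The rotary enzyme has a catalytic F1 head, a central stalk, a peripheral stalk that holds the head still, and a membrane part with a ring of c subunits. All 5 F1 genes were higher. Atp5b, the catalytic beta subunit, stood at 989.7, 999 and 1189.9 CPM in WT liver and at 2831, 3073 and 2872 CPM in WT gastrocnemius, a difference of 1.47 (SE 0.14). Muscle libraries all exceeded liver libraries by more than the spread within either tissue. Atp5a1, the alpha subunit, differed by 1.38 (SE 0.13), Atp5c1 (gamma) by 1.21 (SE 0.10), Atp5e (epsilon) by 1.19 (SE 0.18), and Atp5d (delta) by 0.54 (SE 0.10).

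Of the 4 peripheral stalk genes, 3 were higher, and their differences spread widely. Atp5o, which encodes the protein at the tip of the stalk (OSCP), differed by 1.36 (SE 0.11). The b subunit gene Atp5f1 and the F6 gene Atp5j differed by 0.85 (SE 0.09) and 0.81 (SE 0.11). For subunit d, Atp5h, the difference was 0.20 (SE 0.10, adjusted p = 0.0881), which did not pass. Atp5h did pass without liver WT 6 (0.28, adjusted p = 0.0306) and between the tissues of the R135W animals (0.37, adjusted p = 0.00493). The membrane genes Atp5l, Atp5k and Atp5j2 (subunits g, e and f) differed by 0.82 (SE 0.10), 0.77 (SE 0.12) and 0.61 (SE 0.10). The summed structural genes of complex V stood at 4442 ± 187 FPKM in WT liver and 8665 ± 351 FPKM in WT gastrocnemius, a ratio of 1.95.

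The c ring is encoded by 3 genes whose mature proteins are the same and whose import peptides differ. Atp5g3 was the most abundant per length in both tissues, at 635 ± 38.4 FPKM in WT liver and 769.8 ± 39.2 FPKM in WT gastrocnemius, a difference of 0.28 (SE 0.10). That call was lost with the animal as a block (adjusted p = 0.0608) and without gastrocnemius WT 8 (0.23, adjusted p = 0.0908). Atp5g1 and Atp5g2 differed more, by 1.22 (SE 0.09) and 1.15 (SE 0.09). Atp5g1 made up 20.4 ± 0.559% of the summed c subunit level in WT liver and 30.2 ± 1.67% in WT gastrocnemius. The 2 name-only genes went opposite ways: Atp5s, the gene of coupling factor B, was higher in muscle by 1.52 (SE 0.13), and Atp5sl, now called Dmac2 for a role in complex I assembly, differed by -0.49 (SE 0.11). In the R135W animals the Atp5sl tissue difference was -0.13 and did not pass (adjusted p = 0.27).

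**Figure D1:**
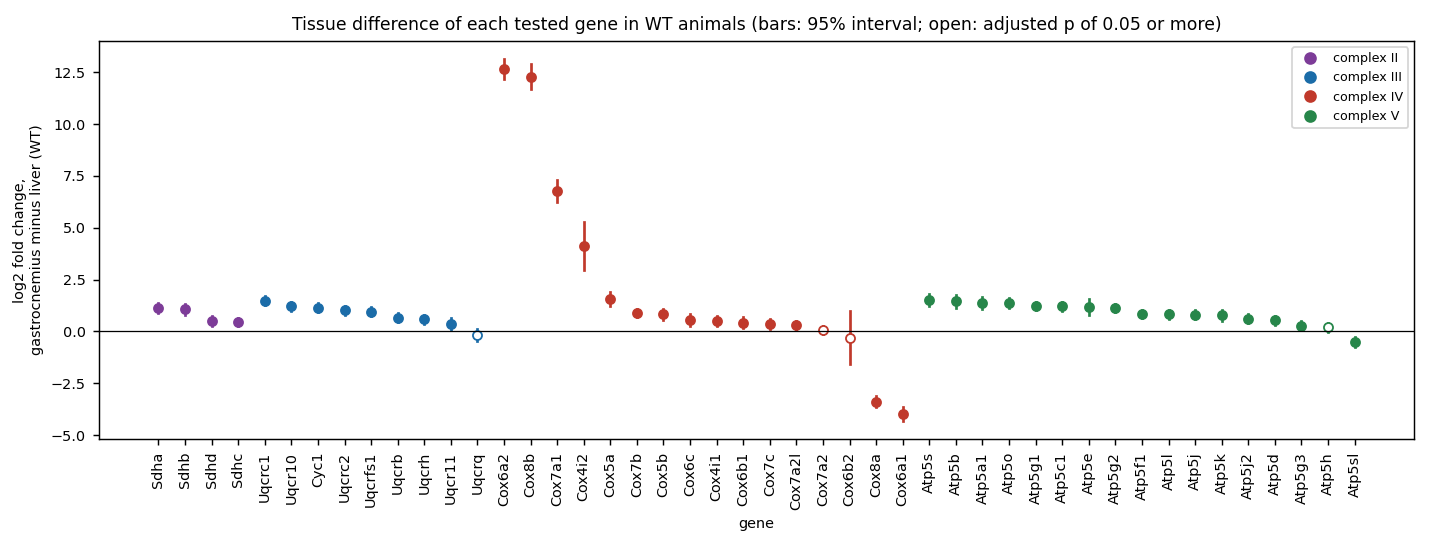
Log2 difference between gastrocnemius and liver of the WT animals for each of the 46 tested genes, ordered within complexes II to V, with 95% intervals; open circles did not pass an adjusted p of 0.05. Complex IV spreads from -3.98 (Cox6a1) to 12.66 (Cox6a2), while complexes II, III and V stay within -0.49 and 1.52.

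Complex IV, which passes electrons from cytochrome c to oxygen, showed isoform differences: 12 of its 16 tested genes were higher in gastrocnemius, 2 were lower, and 2 did not pass. Genes without a muscle form were higher. Cox5a, which binds the matrix side, differed by 1.57 (SE 0.16), Cox7b by 0.89 (SE 0.09), Cox5b by 0.83 (SE 0.12), Cox6c by 0.56 (SE 0.14), Cox4i1 by 0.50 (SE 0.12), Cox6b1 by 0.43 (SE 0.12) and Cox7c by 0.36 (SE 0.10). Cox7a2l, named as a Cox7a-like gene and known as a supercomplex assembly factor, differed by 0.30 (SE 0.10), a call lost without liver WT 6 (0.23, adjusted p = 0.0578) and not made in the R135W animals (0.18, adjusted p = 0.111).

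For the COX6A and COX8 subunits, the liver-type and muscle-type genes had opposite tissue patterns. Cox6a1 stood at 395, 253 and 344 CPM in the livers of WT animals 6, 8 and 9, and at 21.2, 20.5 and 21.2 CPM in their muscles. Cox6a2 (mm10, chr7:128205435-128206366) ran the other way, with 2, 2 and 1 counts in WT liver and 497, 557 and 486 CPM in WT gastrocnemius. No library of one tissue came near the range of the other. Cox6a1 differed by -3.98 (SE 0.16, adjusted p = 3.53e-11). Because Cox6a2 in liver rests on 5 counts over 3 libraries, its ratio is given from the summed counts: 6912-fold higher in muscle, with an exact 95% interval of 2962 to 21289 for counting error only.

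Cox8a stood at 227, 199.95 and 203 CPM in WT liver and at 19.3, 21.5 and 19.7 CPM in WT gastrocnemius, a difference of -3.38 (SE 0.11). Cox8b, its muscle-type counterpart, gave 2, 1 and 0 counts in WT liver and 217, 268 and 255 CPM in WT gastrocnemius. Tissue ranges were again far apart for both genes. The ratio from summed counts was 5551, with an exact 95% interval of 1899 to 26921. As a share of the per-length level of its pair, Cox6a2 made up 0.0199 ± 0.0110% in WT liver and 95.2 ± 0.419% in WT gastrocnemius, and Cox8b made up 0.0328 ± 0.0310% and 94.8 ± 0.358%. The R135W animals gave 94.99 ± 0.260% and 94.2 ± 0.595% in muscle, shares whose ranges overlap those of WT.

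COX7A followed another pattern. Cox7a2, the liver-type gene, stood at 98.9, 97.8 and 86.7 CPM in WT liver and 105.8, 99.2 and 91.7 CPM in WT gastrocnemius, ranges that overlap. Its difference was 0.07 (SE 0.10, 95% interval -0.14 to 0.28), so no tissue difference was detected. Cox7a1, the muscle-type gene, came on top: it stood at 1.58, 1.03 and 1.23 CPM in WT liver and at 125, 145 and 151 CPM in WT gastrocnemius, a difference of 6.77 (SE 0.25). The summed COX7A level was 129 ± 9.13 FPKM in WT liver and 514 ± 28.7 FPKM in WT gastrocnemius. This sum and the COX7A shares hold Cox7a1 and Cox7a2 only. They leave out Cox7a2l, at 67.8 FPKM in WT liver and 83.3 FPKM in WT gastrocnemius. For COX6A and COX8 the sums were closer between the tissues, 620.2 ± 134.6 against 818 ± 56.7 FPKM and 385 ± 27.2 against 717 ± 75.2 FPKM. Cox7a1 made up 2.72 ± 0.547% of COX7A in liver and 74.4 ± 3.25% in muscle of WT animals.

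**Figure D2:**
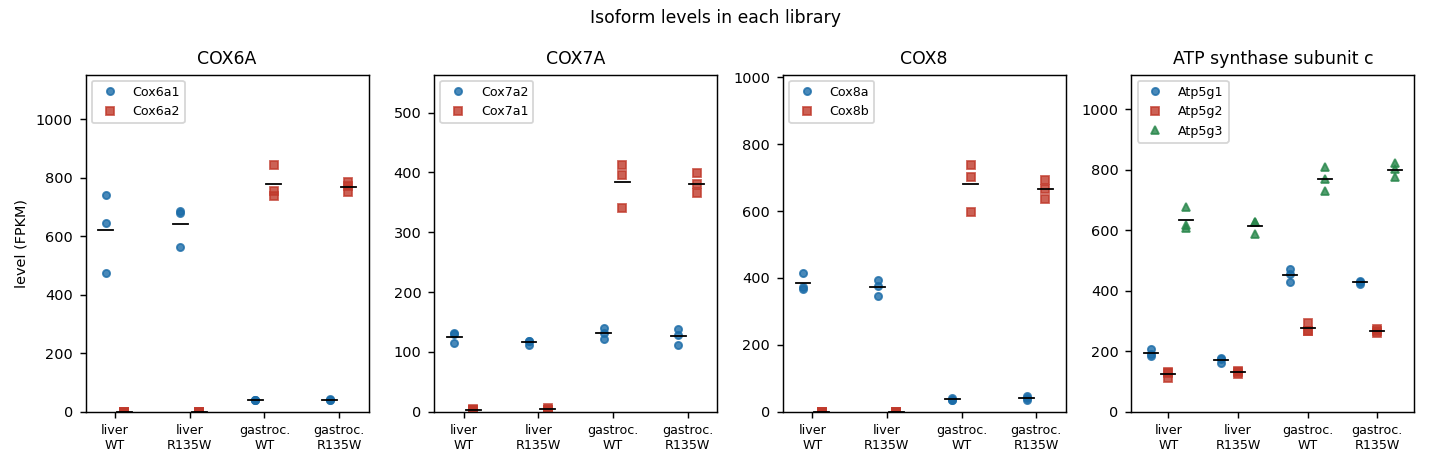
Level per length (FPKM) of each isoform in each of the 12 libraries for COX6A, COX7A, COX8 and ATP synthase subunit c, with 1 point per library and a line at the group mean. Cox6a1 and Cox8a lie at 35.3 to 45.7 FPKM in muscle where Cox6a2 and Cox8b reach at least 598 FPKM, while Cox7a2 lies between 111 and 140.3 FPKM in all groups and Cox7a1 is at least 341 FPKM in muscle and at most 5.95 FPKM in liver.

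The remaining isoforms were rare or had no count. Cox4i2, a form linked to low oxygen in lung, had 2, 0 and 3 counts in WT liver and 31, 38 and 38 counts in WT gastrocnemius, and in muscle it made up 0.219 ± 0.0217% of the COX4 level. Cox6b2, a form known from testis, stayed at 2 to 20 counts in every library, and its tissue difference was -0.29 (SE 0.60). Cox7b2 and Cox8c, also known from testis, had no count in any library and were not tested. Brown fat and heart also use Cox7a1 and Cox8b. In WT gastrocnemius 6 adipocyte markers summed to 90.04 to 99.02 CPM, of which Cfd alone gave 66.2 to 71.0 CPM. The brown fat marker Ucp1 had no count there, and Cidea stood at 0.469 to 0.830 CPM. The 4 cardiac and smooth muscle markers summed to 59.1 to 72.5 CPM. Of these, the smooth muscle genes Myh11 and Acta2 gave 25.6 to 30.9 and 17.1 to 22.6 CPM. The cardiac genes Myh6 and Nppa gave 16.1 to 20.3 and 0.208 to 0.345 CPM. Cox8b alone stood at 217 CPM or more, and the part of such cells in these levels was not tested.

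Because the liver-type and muscle-type genes differ so sharply, their start regions are shown for comparison. Of the 48 genes, 37 matched a RefSeq start region (GRCm38.p6, 250 bases before to 50 bases from the annotated start). The muscle-type gene Cox6a2 was not among them, so its start region was not searched. The lines below run from 200 bases before to 20 bases from the start, 5′ to 3′, and capitals mark matches to the motifs searched. First come 3 liver-type or ubiquitous genes, then 2 muscle-type genes.
Cox6a1 (chr5:115348939-115349158, minus strand): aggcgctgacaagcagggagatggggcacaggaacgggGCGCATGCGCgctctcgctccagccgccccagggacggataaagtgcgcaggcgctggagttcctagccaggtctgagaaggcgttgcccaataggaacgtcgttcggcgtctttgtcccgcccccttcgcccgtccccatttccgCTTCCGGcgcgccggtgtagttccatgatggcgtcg
Cox8a (chr19:7217597-7217816, minus strand): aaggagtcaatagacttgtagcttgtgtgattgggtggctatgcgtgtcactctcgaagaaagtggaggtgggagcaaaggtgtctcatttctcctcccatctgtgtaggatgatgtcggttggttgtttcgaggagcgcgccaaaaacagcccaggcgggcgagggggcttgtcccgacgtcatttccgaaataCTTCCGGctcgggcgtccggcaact
Cox7a2 (chr9:79759834-79760053, minus strand): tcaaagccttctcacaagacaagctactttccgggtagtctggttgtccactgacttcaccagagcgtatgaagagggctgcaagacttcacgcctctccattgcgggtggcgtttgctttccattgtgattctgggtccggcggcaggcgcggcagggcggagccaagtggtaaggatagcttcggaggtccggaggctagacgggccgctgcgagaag
Cox7a1 (chr7:30183971-30184190, plus strand): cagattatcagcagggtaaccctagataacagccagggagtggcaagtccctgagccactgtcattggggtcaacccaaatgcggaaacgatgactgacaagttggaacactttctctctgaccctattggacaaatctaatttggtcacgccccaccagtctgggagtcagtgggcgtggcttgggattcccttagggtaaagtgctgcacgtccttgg
Cox8b (chr7:140900427-140900646, minus strand): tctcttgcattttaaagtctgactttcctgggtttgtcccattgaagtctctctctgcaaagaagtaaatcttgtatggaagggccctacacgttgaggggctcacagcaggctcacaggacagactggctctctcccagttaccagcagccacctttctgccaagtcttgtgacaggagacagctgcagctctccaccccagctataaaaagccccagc
Both strands were searched for CCGGAAG (an ETS site as bound by GABP), AAGGTCA (a site of estrogen-related receptors), GCGCATGC (the core of the NRF1 site) and the MEF2 site of muscle genes. In Cox6a1 the capitals mark GCGCATGC on both strands, overlapping each other, and 1 ETS site read on the other strand. In Cox8a they mark an ETS site across the start, and a second lies 32 bases after it. No letters matched in Cox7a2, Cox7a1 or Cox8b, which says only that these letters are not in this window.

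Over the 37 matched start regions, 11 held the ETS letters (29.7%, where 8.86% of all 32851 regions of that length did), 7 the NRF1 core (18.9% against 2.71%), 5 the estrogen-related receptor letters (13.5% against 4.72%) and 0 the MEF2 site (3.19% of all regions). The ETS letters occur in genes of all complexes, among them Sdhb, Sdhd, Uqcr11, Uqcrh, Cox6a1, Cox6b1, Cox8a, Atp5e, Atp5h, Atp5k and Atp5l. Atp5k and Atp5l held the ETS, NRF1 and estrogen-related receptor letters. These are letter matches and not measured sites.

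Per length, the genes of a complex did not stand at like levels. In WT liver the highest were Uqcrq (666 ± 105 FPKM), Atp5g3, Cox6a1, Cox4i1 (611 ± 84.7 FPKM) and Atp5b (564 ± 60.1 FPKM), whose ranges overlap. In WT gastrocnemius Atp5b led at 1557 ± 69.0 FPKM, above Atp5e (1004 ± 96.0 FPKM) and Atp5a1 (960.7 ± 48.4 FPKM), and these last did not differ beyond their spread. Together the 48 genes took 0.888% to 0.959% of all counts in WT liver and 1.77% to 1.83% in WT gastrocnemius.

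**Figure D3:**
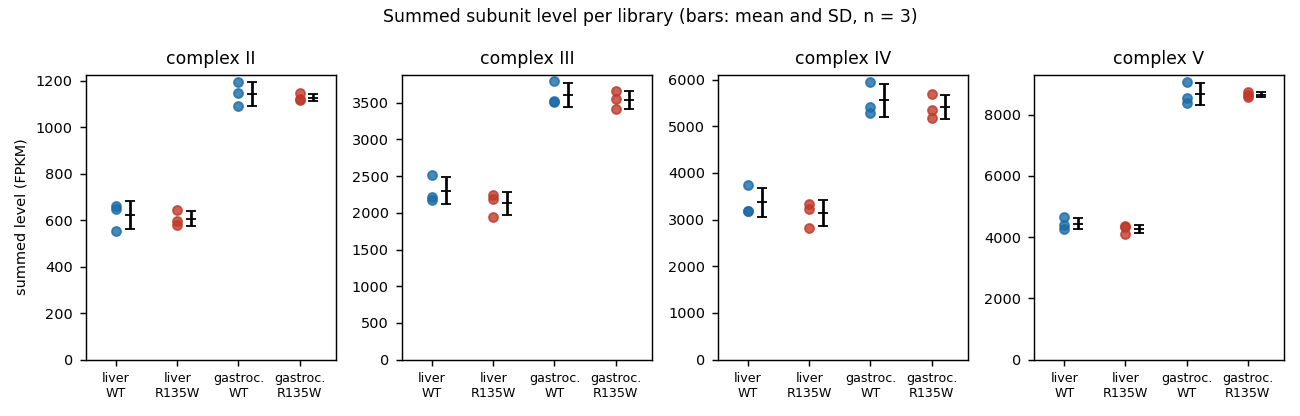
Summed level (FPKM) of the structural genes of complexes II, III, IV and V in each library, with the mean and SD of 3 libraries beside the points. Muscle exceeds liver by ratios of 1.84, 1.57, 1.65 and 1.95 in WT animals, and WT and R135W libraries overlap within each tissue.

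The second question was whether R135W livers differ from WT livers in these genes. None of the 43 members tested passed an adjusted p of 0.05 by edgeR, where 3.28% of 13935 tested genes did, and 5 had an unadjusted p under 0.05, where 17.6% of all genes did. DESeq2 also called 0, with 6 unadjusted. All 5 were lower in R135W. By sign, 30 of 43 were lower, with a median of -0.08, but with library totals in place of TMM factors 20 were lower and 23 higher, with a median of 0.01. That scaling moved the median of all genes from -0.005 to 0.09. With 3 animals a side the SE of a member was 0.13 in the median, larger than the median difference. Whether changes of this size would be found was not tested.

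The complex III small subunit Uqcrb stood at 168, 150.4 and 139.9 CPM in WT animals 6, 8 and 9, and at 129.9, 129 and 109 CPM in R135W animals 5, 7 and 12. Cox7b of complex IV stood at 166, 155 and 149 CPM in WT and at 127, 134 and 124 CPM in R135W. Their groups do not overlap, but the differences of -0.32 (SE 0.13) and -0.30 (SE 0.11) did not pass (adjusted p = 0.242 and 0.213). The complex IV subunit Cox7c differed by -0.30 (SE 0.13) and the ATP synthase f subunit Atp5j2 by -0.29 (SE 0.12), also with groups apart. In all, 11 of 43 members had all R135W livers below all WT livers and 0 above, where 23.7% of all tested genes were apart in either direction. The others were Sdhc, Uqcrfs1, Atp5sl and the ATP synthase genes Atp5c1, Atp5f1, Atp5g1 and Atp5l. Whether levels were apart was read only on TMM-scaled CPM, in both tissues, and not with library totals. TMM factors were 1.023, 0.984 and 0.9625 in WT livers 6, 8 and 9. In R135W livers 5, 7 and 12 they were 1.085, 0.9862 and 1.085, so these separations depend on that scaling.

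The smallest p belonged to Atp5sl, at 45.4, 59.4 and 46.6 CPM in WT and 37.2, 40.2 and 34.1 CPM in R135W liver, a difference of -0.45 (SE 0.14, adjusted p = 0.133 by edgeR). Every R135W liver lay below every WT liver. It passed only in the fit of all 12 libraries (-0.44, adjusted p = 0.0275), and over its 14 alternatives the adjusted p ran from 0.0275 to 0.296. Redox and catalytic genes gave small differences with wide intervals. Sdha differed by -0.02 (95% interval -0.31 to 0.28), Sdhb by -0.03 (-0.33 to 0.27), Cyc1 by 0.05 (-0.22 to 0.33), Atp5a1 by 0.07 (-0.26 to 0.40) and Atp5b by 0.14 (-0.20 to 0.49). Uqcrfs1 stood at 187, 187 and 168 CPM in WT and 164, 158 and 153 CPM in R135W liver, groups that do not overlap, with a difference of -0.20 (SE 0.11, adjusted p = 0.409). In complex II, Sdhc differed by -0.16 (SE 0.11) and Sdhd by 0.04 (SE 0.13). Isoform genes of complex IV gave no call either: Cox4i1 differed by -0.01 (SE 0.15), Cox6a1 by 0.05 (SE 0.18), Cox7a1 by 0.14 (SE 0.39), Cox7a2 by -0.12 (SE 0.11), Cox7a2l by 0.08 (SE 0.13), Cox6b1 by -0.24 (SE 0.14) and Cox8a by -0.05 (SE 0.12). The largest fitted difference was that of the rare Cox6b2, at 0.78 (SE 0.60, 95% interval -0.59 to 2.14), which rests on 2 to 20 counts a library. Of the other paired genes, Atp5g2 differed by 0.06 (SE 0.11), Atp5g3 by -0.05 (SE 0.13) and Uqcrh by -0.14 (SE 0.13).

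By complex the medians in liver were -0.02 for II, -0.12 for III, -0.05 for IV and -0.08 for the structural genes of V. Summed levels overlapped between genotypes for every complex, for example 2820 to 3345 FPKM in R135W against 3188 to 3735 FPKM in WT for complex IV. The members' share of all counts was 0.884% to 0.973% in R135W, overlapping WT. In the same livers 7 of 7 macrophage markers rose and summed to 618 to 683 CPM against 217 to 353 CPM in WT. The 8 hepatocyte markers summed to 79253 to 82798 CPM against 97850 to 101701 CPM in WT, with none past the test. The part of these shifts in the members' values was not tested.

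The liver libraries also differed along exon length within each genotype. The deviation of 40 members from their mean over the 6 livers correlated with log exon length at r = -0.71 in WT 6, 0.20 in WT 8 and 0.71 in WT 9, and at -0.29, -0.51 and 0.64 in R135W 5, 7 and 12. These are descriptions across genes of 1 library, which share its depth. Over 9311 genes the values were weaker, between -0.19 and 0.26. The 20 members of at most 723 bases had a median deviation of 0.19 in WT 6 and of -0.25 in R135W 12. With both of those libraries left out, 0 members passed, the median was -0.06 and 26 of 42 were lower. With a smooth offset on exon length per library, 0 passed, 22 of 43 were lower and the median was -0.01. Both alternatives were chosen after the data were seen.

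**Figure D4:**
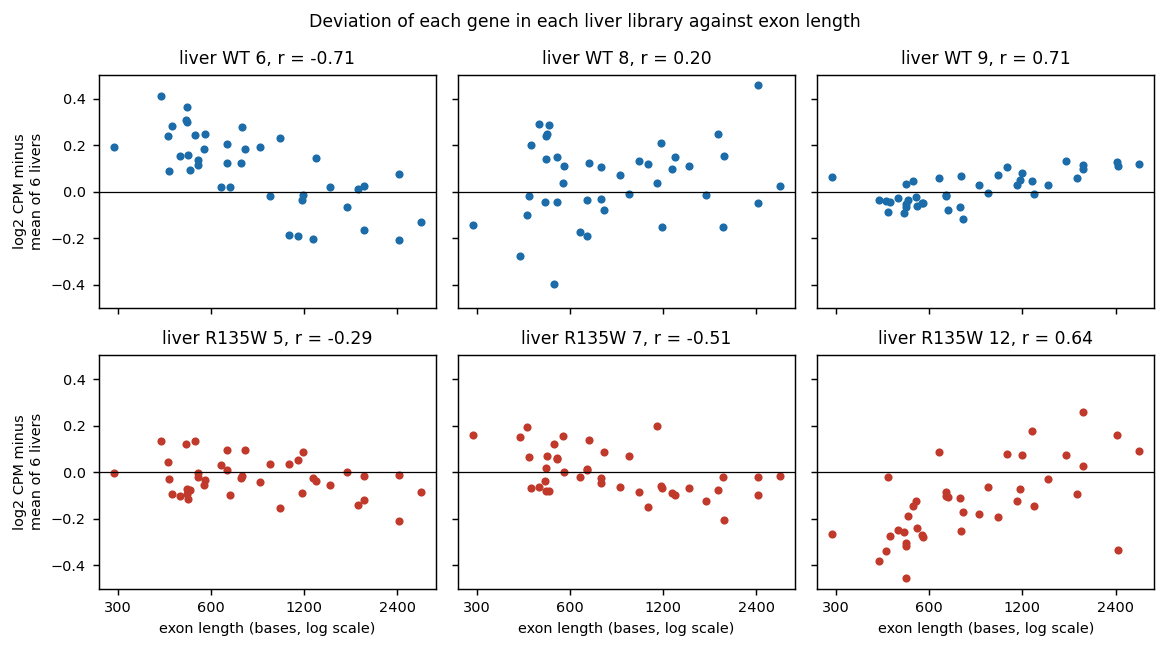
Deviation of each member (log2 CPM minus its mean over the 6 livers) against exon length in bases on a log scale, 1 panel per liver library with its correlation r. Short genes lie high in WT 6 and low in R135W 12.

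In gastrocnemius none of 45 members passed between R135W and WT, where 0.875% of 13826 tested genes did, and 2 had an unadjusted p under 0.05, where 11.5% of all genes did; DESeq2 also gave 0 and 2. The spread between animals was smaller than in liver, with a median SE of 0.07. For 39 of the 40 members above 5 CPM in every group, the 95% interval lay within 0.5 of no change on the log2 scale. By sign 32 of 45 were lower, with a median of -0.04, and with library totals 37 were lower. Without WT 8, which had the highest level of its group in 32 of 40 members, 25 of 46 were lower. Summed complex V levels were 8565 to 8728 FPKM in R135W and 8388 to 9059 FPKM in WT muscle, which overlap.

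Both unadjusted cases were lower in R135W. Atp5s stood at 14.2, 14.4 and 13.9 CPM in WT and 11.7, 12.6 and 10.6 CPM in R135W muscle, a difference of -0.30 (SE 0.09, adjusted p = 0.227 by edgeR). Uqcrfs1, the Rieske protein gene, stood at 331, 372 and 344 CPM in WT and 304, 331.04 and 286 CPM in R135W. Its highest R135W library, animal 7, lay just below its lowest WT library, animal 6 at 331.32 CPM, and the difference was -0.20 (SE 0.08, adjusted p = 0.342). In liver the same gene also had all R135W libraries below WT, without passing there either. Along with Uqcrb (-0.08, SE 0.06), 3 of 45 members had all R135W muscles below all WT muscles. Of all tested genes, 16.2% were apart in either direction on the same scaling.

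Among the 40 members above 5 CPM in every group, Cox5a had the largest SE in muscle, at 0.15. It stood at 288, 357 and 292 CPM in WT animals 6, 8 and 9 and at 231, 328 and 219 CPM in R135W animals 5, 7 and 12. Animal 7 lay above 2 WT animals, and the difference of -0.28 did not pass (adjusted p = 0.512). Over 13 alternatives its value ran from -0.49 (without R135W 7) to -0.16 (without R135W 12), was -0.17 without WT 8, and passed in none. In the same muscles 4 of 7 markers of slow and oxidative fibres had an unadjusted p under 0.05, all lower in R135W, and none passed after adjustment. These were Tnnc1 (-0.43, SE 0.11), Myh7 (-0.32, SE 0.14), Tnni1 (-0.31, SE 0.10) and Tnnt1 (-0.29, SE 0.12). The sum of the 7 markers overlapped, at 4698 to 5538 CPM in R135W and 4947 to 5470 CPM in WT, but most of it was Myh2, the myosin of fast oxidative fibres, which differed by 0.11 (SE 0.07). The part of these markers in the members' values was not tested. The isoform genes gave no call: Cox6a2 differed by -0.03 (SE 0.07), Cox7a1 by -0.02 (SE 0.08), Cox8b by -0.04 (SE 0.08), Cox8a by 0.14 (SE 0.09) and Cox6a1 by 0.03 (SE 0.07). Sdhb differed by -0.08 (SE 0.07), Sdhd by -0.01 (SE 0.06) and Cox5b by -0.12 (SE 0.08). The remaining isoform genes were Cox4i1 at 0.01 (SE 0.07), Cox4i2 at 0.08 (SE 0.25), Cox6b1 at -0.03 (SE 0.08), Cox7a2 at -0.07 (SE 0.09), Cox7a2l at -0.04 (SE 0.07), Cox7b at -0.07 (SE 0.07), Atp5g2 at -0.06 (SE 0.06), Atp5g3 at 0.04 (SE 0.06) and Uqcrh at -0.01 (SE 0.06). The catalytic and redox genes had narrow intervals. Sdha differed by -0.01 (95% interval -0.14 to 0.13), Cyc1 by -0.03 (-0.18 to 0.12), Atp5a1 by 0.04 (-0.11 to 0.19) and Atp5b by 0.00 (-0.16 to 0.16).

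**Figure D5:**
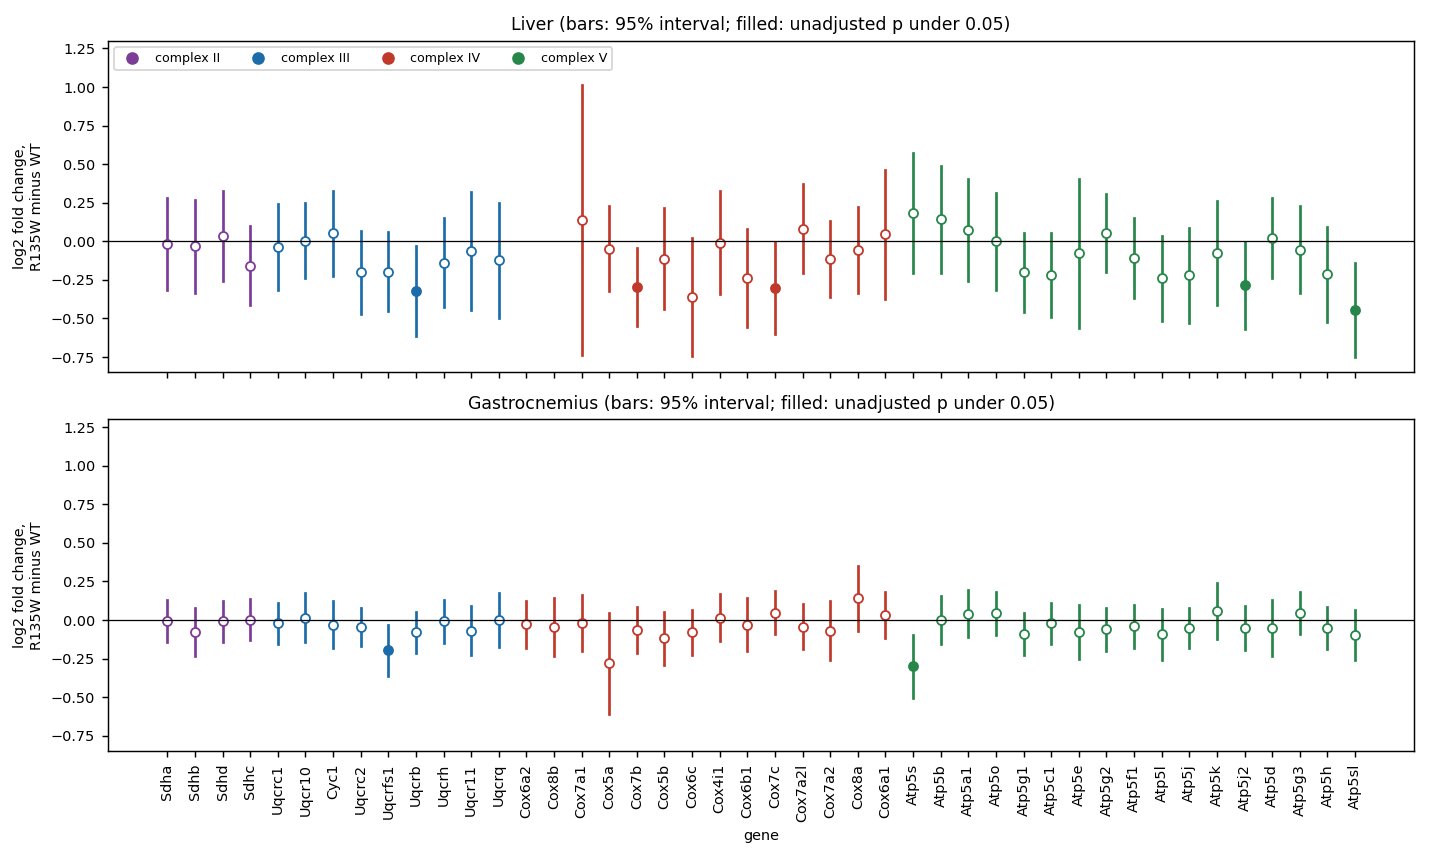
Log2 difference between R135W and WT in liver (upper panel) and gastrocnemius (lower panel) for the members plotted in the tissue comparison other than the rare Cox4i2 and Cox6b2, where tested, with 95% intervals; filled circles have an unadjusted p under 0.05. The 5 filled liver genes and the 2 filled muscle genes lie below 0, none passed after adjustment, and intervals in muscle are narrower.

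In the c subunit, Atp5g1 made up 20.4%, 21.0% and 19.9% of the c subunit level in WT livers and 18.9%, 18.8% and 18.2% in R135W livers. In muscle its shares were 29.3%, 29.3% and 32.2% in WT and 29.1%, 28.4% and 28.5% in R135W. The R135W shares lay below the WT shares in both tissues, by a narrow margin in muscle, and no test was made of shares. For levels of single genes, 23.7% of all tested genes in liver and 16.2% in gastrocnemius had their groups apart. Cox6b2 shares of COX6B in muscle were apart too, the other way. They ran from 0.111% to 0.122% in WT and 0.148% to 0.265% in R135W, on 5 to 15 counts a library. Atp5g1 itself differed by -0.20 (SE 0.11, adjusted p = 0.406) in liver and -0.09 (SE 0.06, adjusted p = 0.63) in muscle.

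The difference between tissues in the genotype effect was tested as an interaction, which used all 12 libraries. No member of 46 passed, where 0.13% of 15414 genes did, and 3 had an unadjusted p under 0.05, where 9.95% of all genes did; DESeq2 gave 0 and 5. These 3 were Atp5s (-0.48, SE 0.18, adjusted p = 0.399), Atp5sl (0.36, SE 0.15, adjusted p = 0.454) and Cox7c (0.36, SE 0.15, adjusted p = 0.436). Of the other members, Cox4i2 gave -1.49 (SE 0.77), Uqcrb 0.25 (SE 0.14), Sdhc 0.17 (SE 0.13), Uqcrc2 0.16 (SE 0.13) and Sdhd -0.04 (SE 0.15). For Uqcrfs1 the interaction was 0.01 with a 95% interval of -0.29 to 0.30. By sign 32 of 46 were positive, but with library totals 28 were negative, and that scaling moved the median of all genes from 0.014 to -0.117.

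Genes around these complexes were read from lists. Of 36 nuclear complex I genes, 33 were higher in WT gastrocnemius than in WT liver and 0 lower, with a median of 0.93; between genotypes 0 passed in either tissue, with medians of -0.10 in liver and -0.03 in muscle. Assembly factors of complexes II to V were more mixed between tissues, with 20 of 30 tested higher and 7 lower. Of 14 genes of the tricarboxylic acid cycle, 13 were higher in muscle and 1 lower, with a median of 1.75. The electron carrier gene Cycs, which links complexes III and IV, was higher in muscle by 1.83 (SE 0.13), and Atpif1, an inhibitor of ATP synthase, differed by -0.36 (SE 0.13). Subunit genes that the name rule misses were also higher in WT muscle. Usmg5 differed by 0.86 (SE 0.09), 2010107E04Rik by 0.68 (SE 0.14) and Ndufa4 by 0.39 (SE 0.11).

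Among 15 regulators of mitochondrial gene transcription, 7 were higher and 3 lower in WT muscle. Esrra, an estrogen-related receptor gene, was higher by 1.92 (SE 0.08), Esrrg by 3.00 (SE 0.38) and the coactivator gene Ppargc1a by 1.79 (SE 0.41). The 3 lower genes were Ppara (-2.73, SE 0.16), Yy1 (-0.47, SE 0.11) and Gabpb1 (-0.42, SE 0.145), the last encoding a subunit of GABP. Nrf1 and Gabpa, which encode the factors whose letters were searched above, differed by 0.14 (SE 0.13) and 0.13 (SE 0.11) and did not pass. Between genotypes Ppara, a receptor for fatty acids, fell in R135W liver by 0.65 on the log2 scale (SE 0.14, adjusted p = 0.0437), the 1 call among these lists outside the markers. In R135W muscle it differed by -0.43 (SE 0.15, adjusted p = 0.287). Alternatives were read gene by gene for members only, so the Ppara call was not checked under them. Ppargc1a varied in R135W liver, at 7.2, 9.8 and 32.2 CPM, with the highest in animal 12.

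Some counts are shared with other genes by construction. Reads were counted for every gene they overlap, and 4 members share exon bases with a neighbour: Atp5j with Gabpa (16.2% of its exon bases), Atp5f1 with Wdr77 (14.1%), Uqcrc2 with Pdzd9 (12.1%) and Cox6a2 with Itgad (10.5%). When every 100-base run of a member's transcript was looked up in the other genes of GENCODE M21, 32 members shared none. More than 30% was shared for Atp5l (69.0%), Atp5g1 (48.1%), Atp5g2 (41.4%), Cox7c (36.2%) and Atp5h (32.7%). Levels of these 5 genes, including the c subunit shares, are uncertain to that extent, because a read that fits several copies is counted at 1 of them.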

How the data were processed

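Poly(A) RNA of liver and gastrocnemius was sequenced as 100-nucleotide read pairs, per the labels' protocols. The deposited values are raw counts per gene symbol: per the file headers, the authors ran featureCounts 1.5.2 on read pairs against UCSC's mm10 genes, kept primary alignments only, set no strand, and let a pair count for each gene that it overlapped. Per the submitters' processing notes, STAR 2.4.0 was among the tools used. No value was normalised or pooled in the files, and all 12 were used. The members and the gene lists were chosen with earlier results of these data known.

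In R 4.3.3, filterByExpr of edgeR 4.0.16 chose the genes to test, TMM set the library sizes, and its quasi-likelihood test gave p-values, adjusted by Benjamini-Hochberg over all tested genes. Genotype was fitted within a tissue, and the tissue difference and the interaction on all 12 libraries in 4 groups. Shares and sums have no test. Alternatives used RLE factors, DESeq2 1.42.0, no filter, age as a covariate, library totals, all libraries and leaving out each library. Library totals were planned for the tissue and interaction tests and the sums, and were added for the genotype tests. The genotype and interaction tests, but not the tissue comparison, were checked on simulated counts. The planted differences were larger than any fitted genotype difference of a member within a tissue. That check therefore does not show whether differences of the size seen would be found. The filter left out Cox4i2, Cox6a2, Cox7b2, Cox8b and Cox8c in liver and Cox6b2, Cox7b2 and Cox8c in gastrocnemius. Per comparison the text names all called members or 3 per complex and direction by p, and the 2 smallest p of a complex without a call. Isoform, redox and catalytic genes are named in the tissue and genotype comparisons where tested, and other members to complete a complex.

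Library totals ran from 20751583 to 30460237 counts, and replicates differed by more than counting error, at a chi-squared per degree of freedom of at least 8.07. The labels do not say whether other factors separate the animals. A number in a title, shared by a liver and a muscle library of equal age and genotype, was read as the animal, so these libraries are paired; deviations from group means correlated within an animal at -0.002 to 0.082 and between animals at -0.073 to 0.065. Promoter sequences are from RefSeq (GRCm38.p6), transcripts from GENCODE M21.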

Additional observations from a re-analysis of the deposited data

How the results depend on the processing

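In liver, 0 members passed under 13 of 14 alternatives and 1 passed (Atp5sl) in the fit of all 12 libraries, which calls 1057 genes in place of 457. In gastrocnemius and for the interaction, 0 passed under every alternative run. The tissue counts stayed within 1.5 times of 39 higher and 3 lower. With the animal as replicate block, 41 of 46 members passed in place of 42, the loss being Atp5g3, and the paired fit changed no other call of a member. The tissue median moved to 0.94 in the R135W animals, an alternative added after the data were seen. Shares of counts without exon length gave 96.1% and 95.9% for Cox6a2 in WT and R135W muscle, 58.6% and 59.6% for Cox7a1, 92.4% and 91.5% for Cox8b, and 35.9% and 34.2% for Atp5g1; in liver Cox7a1 gave 1.34% in WT, and Atp5g1 24.9% in WT and 22.8% in R135W. Exon length enters these shares by construction. The complex V sum in R135W liver was 0.96 of WT, and 1.02 with library totals. These ratios differ only in how the libraries were scaled, and no cause beyond the scaling was tested. Over all 46 members tested between tissues, the call of Uqcr11 was lost in 4 alternatives, those of Atp5g3 and Cox7a2l in 2 each and that of Atp5sl in 1, and Atp5h gained a call in 2. Genes with few counts, such as Cox4i2 and Cox6b2, are limited by depth. Counts over all genes moved more than those of the members. In liver 457 genes passed, 274 with age as a covariate and 84 to 285 without 1 library. In gastrocnemius 121 passed, 265 by DESeq2, 20 in the fit of all libraries and 3 (without WT 8) to 106 without 1 library. For the interaction 20 passed, 183 by DESeq2, 57 with library totals and 6 to 34 without 1 library. DESeq2 also called 772 genes in liver.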
